A study of Homo sapiens with 24 samples.

Results

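A375 human melanoma cells exposed for 48 h to A771726, the active metabolite of leflunomide, were compared with cells kept for 48 h in the solvent DMSO. The comparison rests on 6 of the 24 libraries in the study, namely the 3 labelled A771726 at 48 h and the 3 labelled DMSO at 48 h, which were picked by their column names and by no measured value. A771726 was given at 25 µM. The other 18 libraries hold A771726, A771726 with nucleotides, nucleotides alone and DMSO at 24 h, and A771726 with nucleotides and nucleotides alone at 48 h, with 3 libraries in each group. A375 is an established line that carries a mutant BRAF, all groups share this line and its medium, and no genetic change separates them. Total RNA was depleted of ribosomal RNA, so RNA without a poly(A) tail, such as that of replication-dependent histones, was kept. Nothing in the labels says that the replicates came from separate cultures, so the p-values below reflect variation from library to library, and that variation may be technical only.

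A771726 blocks dihydroorotate dehydrogenase (DHODH), the mitochondrial enzyme that oxidises dihydroorotate on the route to uridine monophosphate. Cells that divide draw on this route for the pyrimidines of RNA and DNA, and added nucleotides or uridine can stand in for it. Shortage of nucleotides and disturbed ribosome synthesis are both known to stabilise p53, a transcription factor whose targets halt the cell cycle.

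Libraries stood apart inside the A771726 group, and this is stated first because each result rests on it. Values are scaled FPKM, that is, the deposited FPKM divided by a median-of-ratios factor for the library. In A771726 replicate 2, 34.0% of the 12137 genes tested were listed at 0 and the microRNA precursor gene MIR3687 held 60.8% of the FPKM sum. In replicate 1 the FPKM sum was 231144 and the factor 0.386, whereas the 21 libraries of the other groups had sums of 459325 to 773002, factors of 0.974 to 1.09 and 1.10% to 1.60% of genes at 0. Replicate 3 had 1.29% of genes at 0 and a factor of 0.839. The SD of the log2 difference from the DMSO mean over all genes was 1.26 in replicate 1, 2.999 in replicate 2 and 0.72 in replicate 3. It was 0.50 to 0.51 in the DMSO libraries, each set against the mean of the other DMSO libraries. An exact 0 in replicate 2 can be a failed estimate: MITF, the melanocyte lineage factor, was listed at 0 there, against 28.1 in replicate 1 and 15.3 in replicate 3.

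**Figure D1:**
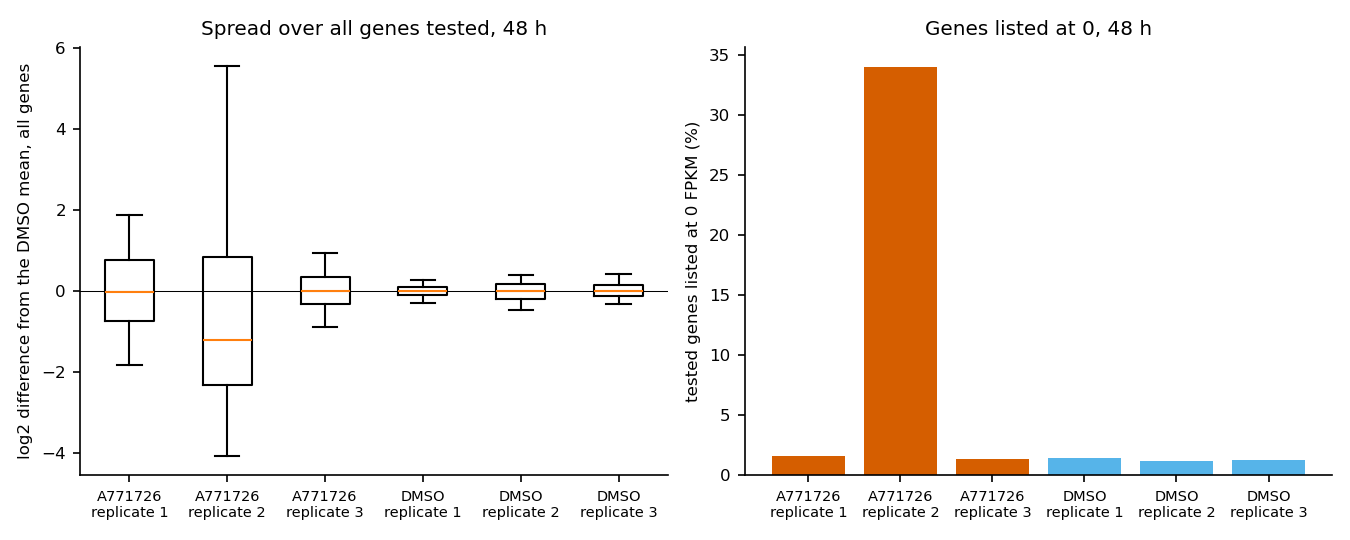
Left, log2 difference over the 12137 genes tested in each library at 48 h, on the log2(scaled FPKM + 1) scale. A771726 libraries are set against the mean of the 3 DMSO libraries, and each DMSO library against the mean of the other DMSO libraries. The line is the median, the box the quartiles and the whiskers the 5th to 95th percentile. Right, percent of those genes listed at 0 FPKM, where A771726 replicate 2 reached 34.0% and replicates 1 and 3 had 1.58% and 1.29%.

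Melanoma markers matched the label in part. SOX10, a neural crest and melanocyte factor, had 14.4, 3.71 and 34.4 scaled FPKM in A771726 replicates 1, 2 and 3, against 39.0, 33.1 and 46.1 in the DMSO libraries. S100B, a calcium-binding protein of melanocytes, had 62.1, 38.3 and 45.4 in A771726, against 28.8, 25.9 and 29.1 in DMSO. Of the 9 tested melanoma markers, 3 (MITF, S100A1 and S100B) rose and 1 (VIM) fell in replicate 3, and MLANA reached 320.5 in replicate 2 alone. Of all genes tested, 14% rose and 8.38% fell in replicate 3. TYR, MLANA, PMEL and TFAP2A were under 1 scaled FPKM in every DMSO library, and the first 3 encode melanosome proteins. Among 16 leukocyte markers, 12 were under 1 in every DMSO library and 12 in A771726 replicate 3, and the defining PTPRC and CD3E were at most 0.0324 in the 6 libraries. The summed level of that list was 1348, 1611 and 1101 in A771726 replicates 1, 2 and 3, against 465 to 542 in DMSO, and it came from LYZ, CD68, HLA-DRA and CD74, all of which A375 libraries in DMSO also held. The 12 fibroblast and endothelial markers summed to 41.9, 0.776 and 31.8 in A771726 replicates 1, 2 and 3, against 4.93 to 5.10 in DMSO. ACTA2, a smooth muscle actin, gave most of this sum in replicates 1 and 3, and PECAM1 and COL1A1 stayed under 0.1 in every one of the 6 libraries. The 12 keratinocyte markers summed to 5.67, 282 and 10.3 in A771726 replicates 1, 2 and 3, against 11.2 to 13.3 in DMSO. Most of the 282 came from DSG3, with 267 in replicate 2 against at most 0.0466 in DMSO. KRT5, KRT14 and TP63 were listed at 0 in that replicate.

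A pair of readings of the comparison are given side by side. The agreed reading takes a gene as changed where limma over all 24 libraries gave a Benjamini-Hochberg adjusted p under 0.05 and all 3 A771726 libraries lay on the same side of all 3 DMSO libraries. The replicate 3 reading takes A771726 replicate 3 as the lone library of its group in a limma fit of 22 libraries, with the assumption that it varies like the other groups, and tests 11438 genes. Limma alone over 24 libraries called 1462 genes higher (12% of those tested) and 2768 lower (22.8%). By the agreed reading 1211 genes were higher (9.98% of those tested) and 2202 lower (18.1%). Lack of overlap is part of that reading, so it is no further evidence for a gene called by it. By the replicate 3 reading 1603 genes were higher (14% of those tested) and 958 lower (8.38%). Of the agreed genes, 510 of the 1211 higher ones also passed in replicate 3 (4.2% of all tested genes), as did 653 of the 2202 lower ones (5.38%), and no gene passed in opposite directions. Opposite calls could not occur, because both readings set replicate 3 against the same DMSO libraries. Of the 2202 agreed lower genes, 967 (43.9%) were listed at 0 in replicate 2.

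The agreed reading leans on the spread of the other groups and on single libraries. A limma fit of the 6 compared libraries alone called 1 gene higher and 8 lower. Agreed genes were 2741 higher without A771726 replicate 2, 2072 higher and 3866 lower without A771726 replicate 3, 687 higher without DMSO replicate 1, and 648 higher and 1344 lower without DMSO replicate 3. On FPKM as deposited, without scaling, 93.1% of agreed calls and 77.1% of replicate 3 calls were lower, against 64.5% and 37.4% after scaling, and the median over all genes in replicate 3 sat at -0.26 on the log2 scale. Directions below are therefore relative to the bulk of genes in replicates 1 and 3, whose medians over the 12137 genes were -0.02 and 0.01 after scaling. In replicate 2 that median stayed at -1.22, so a gene at its bulk already lies on the lower side there. Without A771726 replicate 2, 46.2% of agreed calls were lower.

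Targets of p53 were higher. Of 34 tested members, 12 rose by the agreed reading and none fell, and 30 rose and none fell in replicate 3, where the median log2 difference of the list was 1.34 against 0.00 over all genes. Over all genes, 9.98% were higher and 18.1% lower by the agreed reading, and 14% and 8.38% in replicate 3. The medians of the list were 1.20 in replicate 1 and -0.19 in replicate 2, where the median of all genes was -1.22. CDKN1A, the gene of the cell cycle inhibitor p21, had 141, 53.9 and 224 scaled FPKM in A771726 replicates 1, 2 and 3, against 26.6, 21.4 and 25.99 in the DMSO libraries. All 3 A771726 libraries were above all 3 DMSO libraries, with a log2 fold change of 2.24 ± 0.34 (SE, n = 3 each) and an adjusted p of 0.000269 in limma. In replicate 3 alone the log2 fold change was 3.14 ± 0.22, with an adjusted p of 2.28e-08.

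MDM2, the ubiquitin ligase that degrades p53 and is itself a p53 target, had 178, 1551 and 79.4 scaled FPKM in A771726 replicates 1, 2 and 3, against 19.0, 23.1 and 17.4 in DMSO. Replicate 2 was by far the highest, but replicates 1 and 3 were also above every DMSO library, and replicate 3 alone gave 1.96 ± 0.23 on the log2 scale (adjusted p = 9.19e-06 in limma). RPS27L, a ribosomal protein paralog induced by p53, had 391, 749 and 444 in A771726, against 86.3, 86.7 and 74.9 in DMSO. PPM1D, the phosphatase that turns p53 signalling off, had 11.0, 51.3 and 18.6 in A771726, against 4.52, 4.74 and 4.28 in DMSO. The groups did not overlap for either gene. RRM2B, the p53-induced small subunit of ribonucleotide reductase, had 52.8, 12.1 and 45.3 in A771726, against 9.65, 11.6 and 9.38 in DMSO, and passed both readings with replicate 2 just above the highest DMSO library.

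Other p53 targets did not pass the agreed reading. GDF15, a secreted stress cytokine, had 6.84, 0 and 19.9 scaled FPKM in A771726, against 1.62, 1.23 and 2.71 in DMSO, and so was listed at 0 in replicate 2. It rose by 2.91 ± 0.22 on the log2 scale in replicate 3 (limma adjusted p = 6.05e-08). BBC3, the pro-apoptotic protein PUMA, had 5.14, 2.50 and 10.6 in A771726, against 2.34, 1.59 and 2.58 in DMSO. BAX, the pore-forming death effector, had 29.9, 29.01 and 74.8 in A771726, against 36.9, 30.3 and 44.6 in DMSO, so replicates 1 and 2 lay below all 3 DMSO libraries, and it passed in replicate 3 and not by the agreed reading.

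Replication-dependent histone genes fell together. Of 50 tested, 44 fell by the agreed reading and 30 in replicate 3, and none rose in either. Over all genes, 18.1% fell by the agreed reading and 8.38% in replicate 3. The medians of the list were -2.06, -2.57 and -1.15 in A771726 replicates 1, 2 and 3. Many histone genes are near-identical in sequence, and how the authors' quantification divided shared reads is uncertain, so single members carry that limit. HIST3H2A, a core H2A, had 27.1, 20.2 and 59.7 scaled FPKM in A771726 replicates 1, 2 and 3, against 366, 259 and 341 in DMSO. HIST3H2BB, an H2B, had 49.3, 50.0 and 105 in A771726, against 509, 400.5 and 499 in DMSO. HIST1H3J, an H3, had 52.7, 97.5 and 103 in A771726, against 473, 413 and 473 in DMSO. Each A771726 library was under each DMSO library for these 3 genes, and their log2 fold changes in replicate 3 were -2.40 ± 0.38, -2.14 ± 0.48 and -2.12 ± 0.28.

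Genes of DNA replication, which are made as cells enter S phase, were also lower. Of 48 tested, 18 fell and 1 (GINS1) rose by the agreed reading, while 25 fell and none rose in replicate 3, with a median of -0.64. The shares of all genes that fell were 18.1% by the agreed reading and 8.38% in replicate 3. Subunits of the MCM helicase, which unwinds DNA at replication forks, were among the list members that fell. MCM5 had 8.51, 3.604 and 9.61 scaled FPKM in A771726, against 36.9, 28.03 and 35.8 in DMSO, at -2.15 ± 0.29 on the log2 scale (adjusted p = 0.000133 in limma) and with no overlap. UHRF1, which carries DNA methylation through replication, had 6.16, 6.84 and 8.12 in A771726, against 36.0, 28.9 and 29.9 in DMSO. Its groups did not overlap, with a log2 fold change of -2.02 ± 0.18 over 3 libraries and -1.83 ± 0.18 in replicate 3.

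Genes of the G2 phase and mitosis gave the lowest median in replicate 3 after the histones. Of 46 tested, 19 fell by the agreed reading and 27 in replicate 3, none rose in either, and the medians were -0.35, -1.68 and -0.94 in replicates 1, 2 and 3. Over all genes, 18.1% fell by the agreed reading and 8.38% in replicate 3. CDC20, the activator of the anaphase-promoting complex, had 16.4, 5.85 and 17.4 scaled FPKM in A771726, against 82.4, 70.8 and 81.6 in DMSO. The groups were far apart, at -2.61 ± 0.28 on the log2 scale (adjusted p = 8.32e-06 in limma). PLK1, a mitotic kinase, had 3.41, 11.4 and 5.03 in A771726, against 22.1, 23.02 and 20.2 in DMSO. CCNB1, the cyclin that drives entry into mitosis, had 38.0, 22.3 and 44.2 in A771726, against 125, 123 and 99.7 in DMSO. In bulk RNA, fewer cycling cells and less of these RNAs per cell cannot be told apart.

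Promoters of both cell cycle groups are shown for 4 genes that fell. These 4 were picked by hand as examples and do not stand for their lists. Both groups are known to carry short shared elements. These are the CHR element in genes of mitosis, the E2F site in genes of replication, and the CCAAT box. Each line is the 250 bases before the RefSeq start of the gene in GRCh38.p14, on the strand of the gene, with matches in capitals; CDC20 is chr1:43358731-43358980 on the plus strand, PLK1 chr16:23678639-23678888 on the plus strand, UHRF1 chr19:4909251-4909500 on the plus strand and MCM6 chr2:135876444-135876693 on the minus strand.
CDC20: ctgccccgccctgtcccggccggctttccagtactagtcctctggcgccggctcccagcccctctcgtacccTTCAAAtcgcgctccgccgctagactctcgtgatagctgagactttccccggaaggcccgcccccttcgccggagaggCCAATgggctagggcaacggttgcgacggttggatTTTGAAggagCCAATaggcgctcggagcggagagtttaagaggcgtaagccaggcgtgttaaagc
PLK1: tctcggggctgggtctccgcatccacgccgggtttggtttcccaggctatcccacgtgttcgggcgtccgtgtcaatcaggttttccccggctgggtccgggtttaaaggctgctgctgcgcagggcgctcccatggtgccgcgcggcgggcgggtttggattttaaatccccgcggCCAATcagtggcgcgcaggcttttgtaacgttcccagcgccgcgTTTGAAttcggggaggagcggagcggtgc
UHRF1: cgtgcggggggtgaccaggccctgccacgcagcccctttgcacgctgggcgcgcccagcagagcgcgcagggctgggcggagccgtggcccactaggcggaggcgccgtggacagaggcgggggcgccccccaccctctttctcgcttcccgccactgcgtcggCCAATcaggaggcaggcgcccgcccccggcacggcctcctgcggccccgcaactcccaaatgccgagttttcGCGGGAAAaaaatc
MCM6: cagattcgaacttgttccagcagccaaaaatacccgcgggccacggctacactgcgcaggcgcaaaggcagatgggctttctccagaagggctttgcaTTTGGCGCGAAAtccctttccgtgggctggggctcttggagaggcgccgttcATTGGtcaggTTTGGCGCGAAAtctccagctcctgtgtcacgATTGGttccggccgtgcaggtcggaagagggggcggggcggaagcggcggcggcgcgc

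Capitals mark TTTGAA (CHR), CCAAT, and TTTCCCGC, TTTCGCGC, TTTGCCGC or TTTGGCGC (E2F), each searched on both strands, and the capitals of MCM6 merge overlapping E2F matches. TTTGAA stood in 22 of the 38 G2 and mitosis promoters that matched RefSeq (57.9%), in 20 of 46 histone promoters (43.5%), in 1 of 40 replication promoters (2.5%) and in 13.7% of all 27305 promoters of the same length, or 8.81% of those of tested genes. An E2F match stood in 13 of 40 replication promoters (32.5%) and in 10 of 46 histone promoters (21.7%). It stood in 2 of 38 G2 and mitosis promoters (5.26%), beside 2.76% of all promoters and 4.61% of those of tested genes. CCAAT stood in 30 of the 38 G2 and mitosis promoters (78.9%), in 40 of 46 histone promoters (87.0%), in 22 of 40 replication promoters and in 32.9% of all. Such matches describe these letters only. MCM6 itself, a helicase subunit, had 3.80, 0 and 6.25 scaled FPKM in A771726, against 14.6, 19.2 and 24.0 in DMSO.

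Ribosome synthesis genes were lower as well. Of 64 nucleolar and ribosome biogenesis genes, 27 fell and 2 rose by the agreed reading, and 23 fell and 1 rose in replicate 3, with a median of -0.60. Beside the counts of this list and of the ribosomal proteins below stand 9.98% of all genes higher and 18.1% lower by the agreed reading. In replicate 3 the shares of all genes were 14% and 8.38%. NPM1, an abundant nucleolar chaperone, had 616, 406 and 521 scaled FPKM in A771726, against 1301, 1289 and 1094 in DMSO, which did not overlap. FBL, the methyltransferase of ribosomal RNA, had 18.8, 3.46 and 21.2 in A771726, against 69.2, 55.1 and 116 in DMSO. DDX21, a nucleolar RNA helicase that the study also examined by chromatin immunoprecipitation, had 153, 24.7 and 66.1 in A771726, against 72.8, 77.4 and 64.6 in DMSO. Its libraries spanned both sides of the DMSO range, and neither reading called it (limma adjusted p = 0.74 and 0.751). Of 78 cytosolic ribosomal protein genes, 35 fell by the agreed reading and 10 in replicate 3, and none rose. Under quantile normalization of the replicate 3 fit, 3 of them were higher and 4 lower.

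Among P-TEFb and its partners, the kinase complex that releases paused RNA polymerase II, 2 of 34 genes rose and 8 fell by the agreed reading, and 3 rose and 5 fell in replicate 3. The 3 and 5 are 8.82% and 14.7% of the list, beside 14% and 8.38% of all genes, and the 8 agreed lower genes stand beside 18.1%, so these counts are near the background. CDK9, its kinase, had 6.92, 0 and 8.86 scaled FPKM in A771726, against 11.9, 10.6 and 16.2 in DMSO. HEXIM1, its inhibitor, had 3.43, 2.56 and 7.25 in A771726, against 8.08, 8.32 and 10.5 in DMSO. Both fell by the agreed reading and neither passed in replicate 3 (limma adjusted p = 0.265 and 0.425).

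In the pyrimidine pathway, 1 of 26 tested genes rose and 11 fell by the agreed reading, and 2 rose and 7 fell in replicate 3, with a median of -0.25. Beside these counts stand 9.98% of all genes higher and 18.1% lower by the agreed reading, and 14% and 8.38% in replicate 3. DHODH, the enzyme that A771726 inhibits, had 7.84, 61.8 and 6.56 scaled FPKM in A771726, against 8.55, 6.76 and 7.99 in DMSO. Outside replicate 2 its values lay within or near the DMSO range, and neither reading called it. CAD, which carries out the first steps of the pathway, had 7.29, 4.54 and 7.17 in A771726, against 9.19, 10.8 and 10.3 in DMSO, and UMPS, which completes uridine monophosphate, had 12.9, 16.3 and 10.7 against 11.99, 10.4 and 11.1. Neither CAD nor UMPS passed. The members that fell in replicate 3 act in deoxynucleotide synthesis, salvage or transport. TK1, a thymidine kinase made in S phase, had 19.7, 8.61 and 25.3 in A771726, against 65.4, 48.8 and 65.4 in DMSO, and UPP1, uridine phosphorylase, had 2.12, 0 and 4.03 against 9.11, 8.38 and 10.9.

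NF-kB targets and cytokines were higher in replicate 3, where 10 of 14 tested genes rose and 1 (TNFAIP2) fell. By the agreed reading 3 of 15 rose (ICAM1, TRAF1 and TNFAIP3) and none fell, and 9 of the 15 were listed at 0 in replicate 2. CXCL8, the neutrophil chemokine interleukin 8, had 492, 0 and 164 scaled FPKM in A771726, against 6.53, 7.60 and 5.27 in DMSO. IL1A, interleukin 1 alpha, had 41.8, 0 and 24.3 in A771726, against 0.818, 1.15 and 0.859 in DMSO. Replicates 1 and 3 were far above DMSO for both, and in replicate 3 CXCL8 rose by 4.48 ± 0.24 and IL1A by 3.70 ± 0.23 on the log2 scale (adjusted p = 1.15e-09 and 6.07e-09 in limma). Interferon response genes rose in 5 of 25 tested cases by the agreed reading and in 10 of 25 in replicate 3, and none fell. IFI6, an interferon-induced mitochondrial protein, had 32.9, 286 and 56.8 in A771726, against 22.1, 18.7 and 22.02 in DMSO. Beside the counts of both lists stand 9.98% of all genes higher and 18.1% lower by the agreed reading. In replicate 3 the shares of all genes were 14% and 8.38%.

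Lysosomal genes rose in 12 of 32 cases in replicate 3 and none fell, with a median of 0.39, whereas 4 rose and 4 fell by the agreed reading. CD68, a lysosomal membrane glycoprotein, had 14.5, 41.1 and 16.2 scaled FPKM in A771726, against 3.32, 3.07 and 3.35 in DMSO. Of 33 integrated stress response genes, 18 fell and none rose by the agreed reading, and 9 fell and 4 rose in replicate 3. ASNS, asparagine synthetase, had 26.1, 6.82 and 11.9 in A771726, against 27.2, 33.6 and 26.1 in DMSO. ATF3, a stress-induced transcription factor, had 31.2, 0 and 16.4 in A771726, against 1.21, 0.850 and 1.10 in DMSO, and rose in replicate 3. Splicing factors of the SR and hnRNP families fell in 22 of 39 cases by the agreed reading and in 14 of 39 in replicate 3, and heat shock and chaperone genes fell in 11 and 7 of 21. Beside the counts of these lists stand 9.98% of all genes higher and 18.1% lower by the agreed reading, and 14% and 8.38% in replicate 3. The agreed lysosomal counts and the stress response genes higher in replicate 3 were near or under these shares. MYC had 1.29, 2.59 and 2.87 in A771726, against 3.33, 2.63 and 2.73 in DMSO, and passed neither reading.

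**Figure D2:**
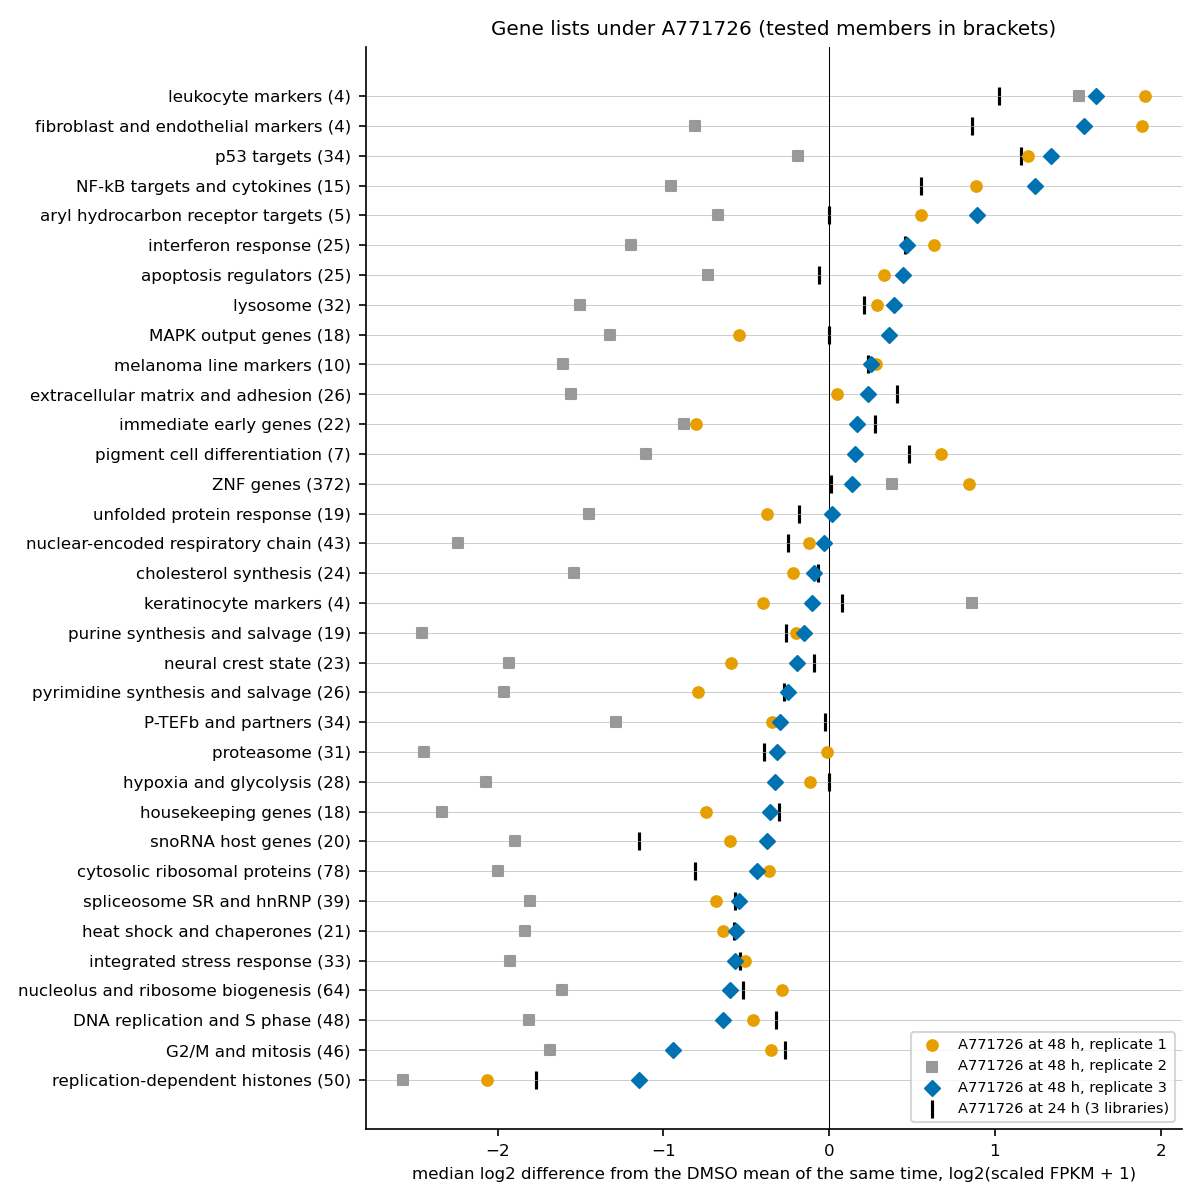
Median log2 difference from the DMSO mean of the same time for each gene list, on the log2(scaled FPKM + 1) scale, in A771726 replicates 1, 2 and 3 at 48 h (symbols) and over 3 libraries at 24 h (bars); the number of tested members is in brackets. The p53 targets sit at 1.20 and 1.34 in replicates 1 and 3, and the histones at -2.06, -2.57 and -1.15 in replicates 1, 2 and 3.

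The named higher genes with the largest agreed change included 4 besides the p53 targets with known roles. ITGA2, the collagen-binding integrin alpha 2, had 72.6, 128 and 39.7 scaled FPKM in A771726, against 6.26, 7.997 and 6.40 in DMSO, up by 3.21 ± 0.28 on the log2 scale (adjusted p = 1.36e-06 in limma). NOX4, an NADPH oxidase that makes hydrogen peroxide, had 28.9, 49.3 and 19.2 in A771726, against 2.94, 3.43 and 3.68 in DMSO. LYZ, lysozyme, had 94.0, 1285 and 47.6 in A771726, against 7.22, 6.27 and 5.42 in DMSO. By the naming rule the A771726 libraries were above every DMSO library for these 3 genes, and replicate 2 was the highest. HLA-DOA, an MHC class II chaperone, had 42.2, 261 and 23.8 in A771726, against 2.69, 2.72 and 3.09 in DMSO.

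The other named higher genes were ANKRD20A12P, SLC25A45, PTCHD4, RPS10-NUDT3, SCHIP1 and PLCG2. Their log2 fold changes in replicate 3, PLCG2 aside, ran between 2.05 for PTCHD4 and 2.93 for SCHIP1. PLCG2, a phospholipase of receptor signalling, had 628, 304 and 1355 in A771726 and was listed at 0 in all 3 DMSO libraries, so no fold is given. RPS10-NUDT3 is a readthrough gene whose reads overlap its parent genes. SCHIP1 shares exons with the readthrough gene IQCJ-SCHIP1, which went the other way. SCHIP1 had 22.8, 8.45 and 10.9 in A771726, against 0.256, 1.32 and 0.310 in DMSO, whereas IQCJ-SCHIP1 had at most 0.0005 in A771726, against 8.63, 6.81 and 8.02 in DMSO. How shared reads were split between the pair is uncertain.

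The named lower genes beyond the histones, CDC20, UHRF1 and IQCJ-SCHIP1 were NGFR, TGM2, BCL7C and SLMO2-ATP5E. NGFR, the nerve growth factor receptor of neural crest cells, had 0.528, 0 and 0.923 scaled FPKM in A771726, against 11.5, 9.09 and 10.1 in DMSO. All 3 A771726 libraries were below 1, at -2.96 ± 0.25 on the log2 scale (adjusted p = 8.94e-07 in limma). TGM2, a transglutaminase that cross-links proteins, had 2.36, 2.27 and 2.56 in A771726, against 10.2, 11.2 and 20.5 in DMSO. BCL7C, a subunit of SWI/SNF complexes, had 1.40, 2.58 and 5.31 in A771726, against 25.8, 16.6 and 23.7 in DMSO. SLMO2-ATP5E is a readthrough gene with the same limit as above. The remaining histone genes, HIST2H2BA and HIST1H2BM, completed the 12, and both were listed at 0 in replicate 2.

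Cytoskeletal and housekeeping genes were not level. VIM, the intermediate filament vimentin, had 103, 104 and 211 scaled FPKM in A771726, against 715, 664 and 635 in DMSO. ACTB, beta-actin, had 92.8, 64.2 and 177 in A771726, against 439, 446 and 537 in DMSO. Beside the counts that follow stand 9.98% of all genes higher and 18.1% lower by the agreed reading. In replicate 3 the shares of all genes were 14% and 8.38%. Among 18 housekeeping genes, 7 fell and none rose by the agreed reading, and 5 fell and 1 (B2M) rose in replicate 3.

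**Figure D3:**
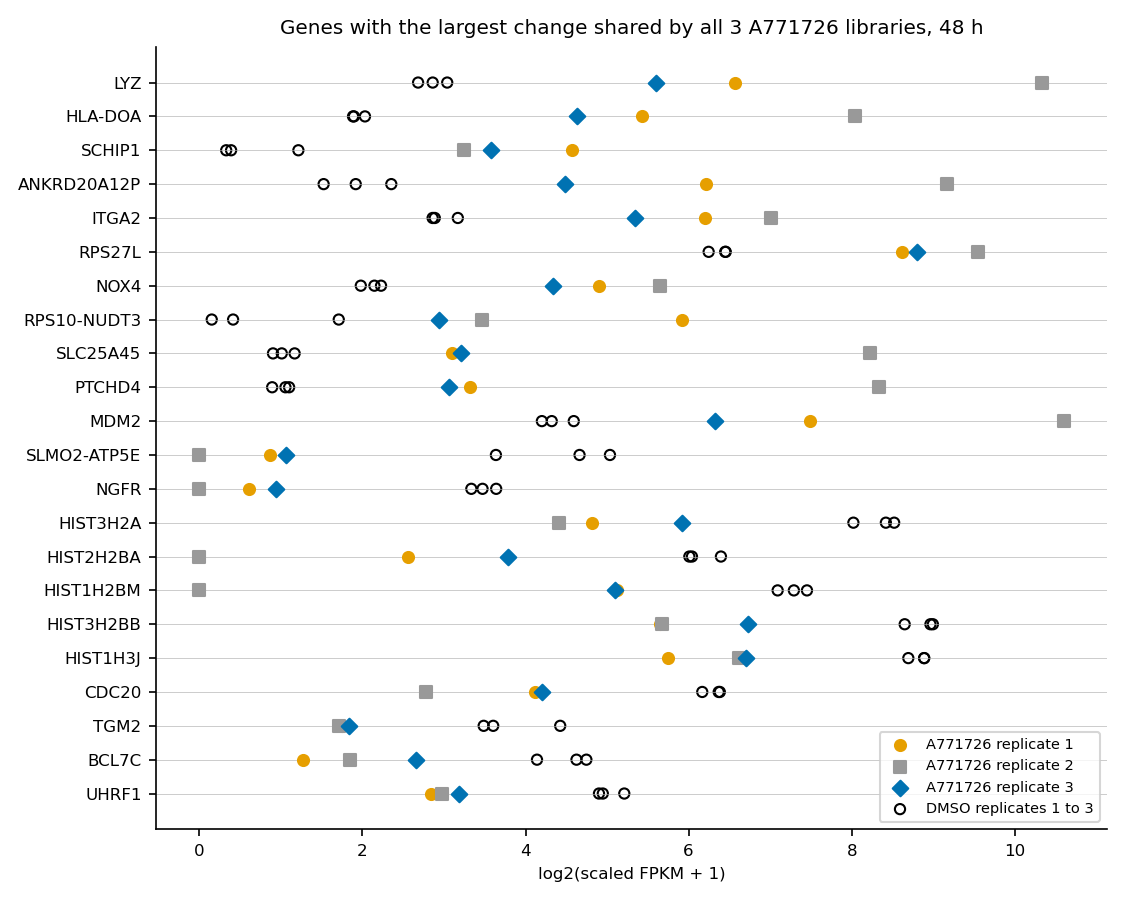
Level, as log2(scaled FPKM + 1), of the genes with the largest agreed change in each of the 6 libraries at 48 h; filled symbols are A771726 replicates 1 to 3 and open circles DMSO replicates 1 to 3. PLCG2 and IQCJ-SCHIP1, at or near 0 in 1 group, are not drawn. No filled symbol lies within the open circles of its row, because the naming rule required this.

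Base composition moved with the difference. GC content and length of the longest transcript were matched by symbol for 11317 of the 12137 genes (93.2%). Across genes, Spearman's rho between GC content and the log2 difference from DMSO was -0.52 in A771726 replicate 1, -0.12 in replicate 2 and -0.47 in replicate 3, and 0.09 for A771726 at 24 h. In replicate 3 the third of genes with the lowest GC content had a median difference of 0.25 and the third with the highest had -0.28. Zinc finger genes had transcripts with a median GC content of 43.1%, against 47.5% over all genes. By the agreed reading 101 of 372 rose and 30 fell, beside 9.98% and 18.1% of all genes. With each library's trend on GC content and length removed, an alternative chosen after the data were seen, 55 of 336 zinc finger genes were higher and 25 lower in replicate 3, against 50 of 339 and 5 without it. The higher genes were 16.4% of the list after removal and 14.7% before, beside 18.8% and 14% of all genes, so in replicate 3 the higher share was near or under the background. After the same removal 29 of 33 p53 targets were higher in replicate 3, beside 18.8% of all genes, and 43 of 50 histone, 34 of 48 replication and 36 of 46 mitosis genes were lower, beside 15.7% of all genes. The lower counts were larger than the 30, 25 and 27 before removal, as was the share of all genes, and the histone median was -1.04.

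The effect at 48 h was set against that at 24 h, which used none of the same libraries. In the fit of 22 libraries, A771726 at 24 h gave 1270 higher genes (11.1% of those tested) and 1519 lower (13.3%). Of 1263 genes higher at 24 h and tested in both fits, 705 were also among the 1603 higher in replicate 3 at 48 h and 1 was lower. Of 1517 lower at 24 h, 452 were among the 958 lower in replicate 3 and 31 were higher. The median of the p53 targets was 1.16 at 24 h, that of the histones -1.77 and that of the G2 and mitosis genes -0.26.

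Over all 24 libraries the difference between the effects at the 2 times passed for 8 genes, of which 3 were above (0.0247% of those tested) and 5 below (0.0412%). With replicate 3 as the only A771726 library at 48 h, a choice made after the data were seen, it passed for 431 genes above (3.77%) and 97 below (0.848%). CXCL8 averaged 10.3 ± 2.88 scaled FPKM in A771726 and 4.45 ± 0.70 in DMSO at 24 h (SD, n = 3 each), beside the 164 and 5.27 to 7.60 given above for 48 h. Its effect in replicate 3 was larger by 3.45 ± 0.29 on the log2 scale (limma adjusted p = 3.44e-06). STC1, the secreted hormone stanniocalcin, had 17.8, 2.40 and 12.6 at 48 h in A771726, against 0.648, 0.672 and 0.541 in DMSO, and all 3 A771726 libraries were above. Its effect in replicate 3 was larger by 1.97 ± 0.14 than at 24 h.

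Of the 46 G2 and mitosis genes, 8 had a lower effect in replicate 3 at 48 h than at 24 h and none a higher one, and the median difference between the effects was -0.58. PLK1 averaged 16.2 ± 7.37 in A771726 and 18.7 ± 2.07 in DMSO at 24 h (SD, n = 3 each), and its effect in replicate 3 at 48 h differed from that at 24 h by -1.64 ± 0.44 (limma adjusted p = 0.0432). CDC20 averaged 43.3 ± 5.47 in A771726 and 77.5 ± 9.14 in DMSO at 24 h, and its effect differed by -1.28 ± 0.23 (limma adjusted p = 0.00578). Over all 24 libraries the median difference of the G2 and mitosis genes was -0.71. Their median in replicate 1 was -0.35 at 48 h, beside -0.26 at 24 h. Of all genes, 0.848% lay below with replicate 3 alone. For the histones the median difference between the effects was 0.68 with replicate 3 alone and -0.18 over all 24 libraries. Over all genes these medians were 0.04 and -0.35. The histone median was -2.06 in replicate 1 at 48 h and -1.77 at 24 h. HIST3H2A averaged 87.0 ± 25.5 in A771726 and 740 ± 130 in DMSO at 24 h (SD, n = 3 each). At 48 h it averaged 322 in DMSO and had 59.7 in A771726 replicate 3, so its DMSO level also differed between the times.

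**Figure D4:**
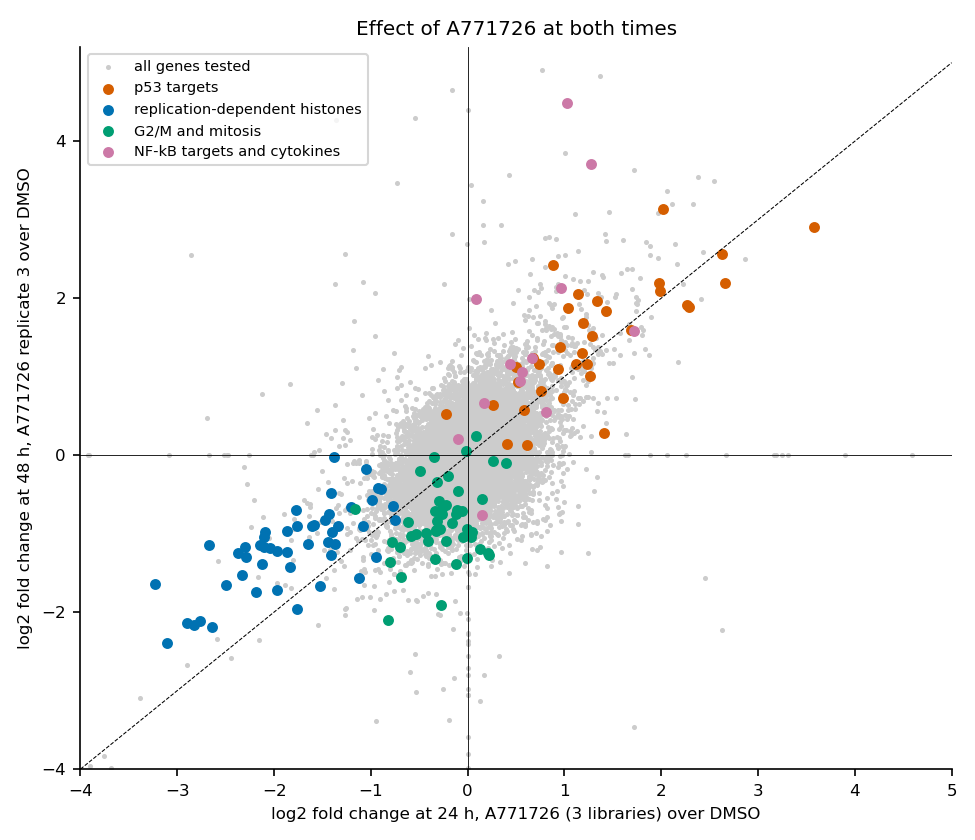
Log2 fold change of A771726 over DMSO at 48 h, with replicate 3 as the lone A771726 library (vertical), against that at 24 h over 3 libraries (horizontal), both on the log2(scaled FPKM + 1) scale; each point is a gene, 4 lists are coloured, genes past the axis limits are not shown and the dashed line marks equal effects. G2 and mitosis genes lie mostly below the dashed line, with a median difference of -0.58, and CXCL8 and IL1A are the 2 highest cytokine points, at 4.48 and 3.70.

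Cells given A771726 together with nucleotides for 48 h are set beside these values. They share the DMSO libraries, so no overlap is tested. CDKN1A had 25.9, 26.1 and 30.1 scaled FPKM there, CXCL8 7.28, 7.47 and 6.74, CDC20 74.4, 73.8 and 83.1, and HIST3H2A 332, 373 and 354. These lie near the DMSO values given above and away from those of A771726 replicates 1 and 3. NGFR had 6.48, 6.62 and 5.85 there, which is between the A771726 and the DMSO libraries. The median log2 difference from DMSO was 0.04 for the histones, 0.01 for the replication genes and 0.01 for the G2 and mitosis genes.

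**Figure D5:**
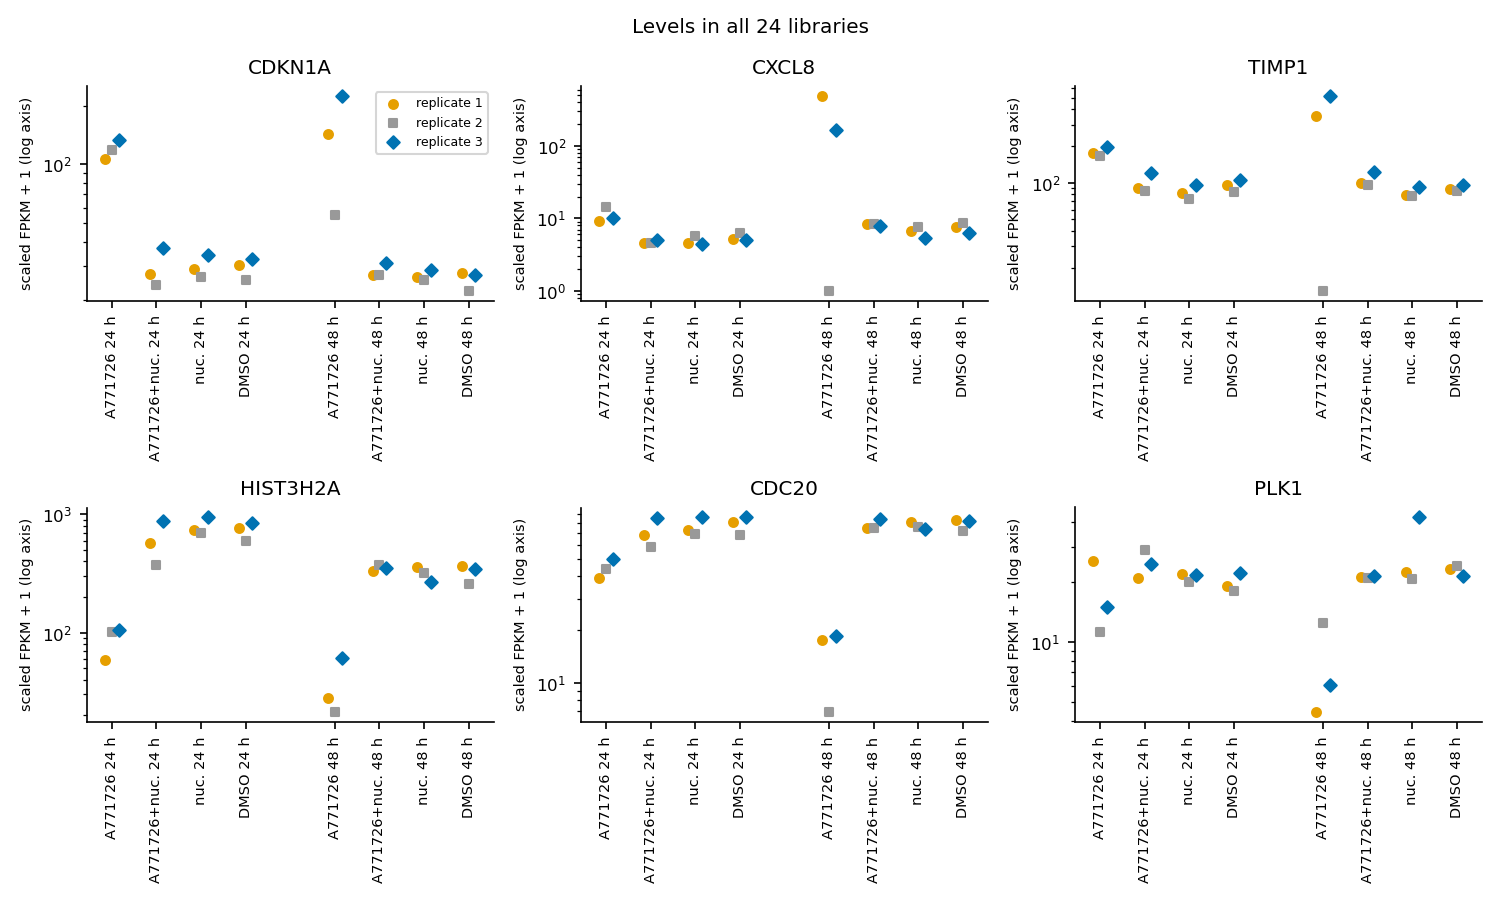
Scaled FPKM + 1 on a log axis for 6 genes in each of the 24 libraries, by treatment and time (nuc., nucleotides); symbols and colours give the replicate number. A771726 replicate 2 at 48 h is listed at 0 for CXCL8, while replicates 1 and 3 have 492 and 164.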

How the data were processed

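The authors deposited FPKM (fragments scaled by transcript length and library size) for 25268 genes in 24 libraries; per the submitters' processing notes the tools were cutadapt (no version in the sources used here), TopHat2 2.0.11 and Cufflinks 2.2.1, with hg19. The labels' treatment text speaks of formaldehyde and immunoprecipitation, steps of another assay. The values showed no common step, so whole reads could not be recovered, depth is unknown and no count test was run; 0 columns were left out.

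FPKM were divided by median-of-ratios factors from the 8378 genes above 0 in all 24 libraries. Genes with a mean of at least 1 were kept, and log2(scaled FPKM + 1), which understates changes of low genes, was fitted with limma 3.58.1 in R 4.3.3 over 8 groups, without a replicate block, at a Benjamini-Hochberg adjusted p under 0.05. The median SE was 0.40 with 24 libraries and 0.22 with 22. The fits were tested on simulated data, and no outcome of that test is given here. That test is therefore no evidence on how the fits handle the A771726 libraries that stood apart.

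The comparison, the gene lists and the naming rule were chosen with earlier results of these data known. Named genes are the 12 higher and 12 lower with the largest agreed change, which is the smallest of the 3 differences from the DMSO mean. They passed both readings and reached 5 scaled FPKM in the higher group; lower genes were above 0 in at least 2 A771726 libraries, and short RNAs, clone names and antisense genes were left out. DDX21, DHODH, HEXIM1, CDK9, CDKN1A and MYC were named whatever their values, as were list members whose role is described. Between the times, with replicate 3 alone, the 10 above and 10 below with the largest difference are named among genes that passed. They reached 5 scaled FPKM in replicate 3 or the DMSO mean at 48 h and differed the same way in replicate 1. Short RNAs, clone names, antisense and host genes, and symbols ending in P or in P and digits were left out. The rule was set after the values were seen. Promoters are those of RefSeq, GRCh38.p14; GC content and length come from GENCODE transcripts matched by symbol, another annotation than the authors used.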

Additional observations from a re-analysis of the deposited data

Results flagged for a closer look

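The effect of A771726 differed between 48 h and 24 h, by a limma test of the difference itself with Benjamini-Hochberg adjustment, for the genes below; each value is the log2 effect at 48 h minus that at 24 h. Over all 24 libraries it was 2.99 for SCHIP1, 2.23 for RPL22L1, a paralog of a ribosomal protein, and 2.23 for OR51B5, an olfactory receptor gene. It was -3.27 for IQCJ-SCHIP1, -2.42 for NGFR, -1.81 for SRRT, an RNA processing factor, and -1.62 for SMARCB1, a SWI/SNF subunit. The remaining gene that passed, MIR3648, was listed at 0 in all 3 A771726 libraries at 48 h and is given no fold. RPL22L1 had 52.1, 88.4 and 36.0 scaled FPKM in A771726 at 48 h beside a DMSO mean of 54.2, and averaged 12.2 in A771726 and 58.1 in DMSO at 24 h.

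With replicate 3 as the only A771726 library at 48 h, only genes kept by the naming rule were ranked. That rule left out SCHIP1 and IQCJ-SCHIP1 by the form of their symbols. The 10 largest ranked differences above 0 began with 3.47 for TCN1, 3.45 for CXCL8, 2.55 for PCSK1, 2.43 for IL1A and 2.02 for FAIM3. Next came 1.99 for PTHLH, 1.97 for STC1, 1.96 for DYNLT3, 1.94 for IL24 and 1.92 for CD55. Several of these encode secreted proteins: TCN1 carries vitamin B12, PCSK1 cleaves prohormones, PTHLH is a parathyroid-like hormone and IL24 a cytokine. TCN1 had 75.6, 0 and 50.6 scaled FPKM in A771726 at 48 h, against 0.705, 1.13 and 0.637 in DMSO. Replicate 2 was listed at 0 for TCN1, CXCL8, PCSK1, IL1A, FAIM3 and PTHLH.

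The 10 largest ranked differences below 0, by the same rule, began with -2.00 for NGFR, -1.75 for PTMS, -1.64 for PLK1, -1.59 for SPC24 and -1.50 for TIMELESS. Next came -1.44 for SRRT, -1.32 for MAP7D1, -1.28 for CDC20, -1.27 for MKNK2 and -1.25 for PAFAH1B3. PLK1, SPC24 and CDC20 act in mitosis, and TIMELESS at replication forks. SPC24, a kinetochore subunit, had 12.9, 24.2 and 15.6 scaled FPKM in A771726 at 48 h, against 51.2, 37.4 and 52.6 in DMSO, and all 3 were below.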

How the results depend on the processing

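None of the up to 173 genes checked reversed a called direction in limma over 24 libraries under the alternatives run. Directions of single genes in replicate 3 or between the times were not checked in this way. The balance of higher and lower calls turned over in limma with array weights (3506 higher, 2872 lower) and without A771726 replicate 2 (3025 and 2624). It also turned over in replicate 3 without scaling. Without scaling (FPKM as deposited), limma over 24 libraries called 511 genes higher and 6404 lower, the agreed reading 371 and 5008, the replicate 3 reading 755 and 2541, and the difference between the times 3700. With only the groups compared, the counts were 1 and 8 in limma and also 1 and 8 in the agreed reading, replicate 3 gave 1015 higher genes, and the difference between the times gave 3; 23 of the 24 named genes lost their call there, and all 24, or the 22 that were tested, kept it under every other alternative.

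Without a filter replicate 3 gave 2803 higher genes; under a filter at 5 FPKM the agreed reading gave 806 higher and replicate 3 829. Array weights, whose iteration stopped before it converged, gave 3681 higher and 3419 lower genes in replicate 3. The GC content and length alternative gave 923 higher genes in limma, 795 higher in the agreed reading and 1689 lower in replicate 3. The count of genes that differed between the times, 8 as reported, was the least stable: 2112 with TPM scaling, 204 with quantile normalization, 2 with a pseudocount of 0.1, 151 without a filter, 5 with limma-trend and robust estimation, 6520 with array weights, 444 where zeros of expressed genes counted as missing, 4 with the GC trend removed and 528 with replicate 3 alone. The cause was not tested for any of these.

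Leaving out each library in turn gave 664 to 3025 higher and 1400 to 4712 lower genes in limma, 648 to 2741 and 1344 to 3866 in the agreed reading, 1294 to 1666 and 664 to 1076 in replicate 3, and 4 to 4671 for the difference between the times. With the replicate block, replicate 3 gave 2689 higher and 2200 lower genes and the difference between the times 926; the agreed reading gave 1237 and 2286. Same-numbered A771726 and DMSO libraries at 48 h correlated at 0.030 to 0.033 in their deviations across genes. Replicate 3 of A771726 correlated more with replicate 1 of DMSO (0.046). These correlations cannot decide whether the numbers pair the libraries, because the A771726 libraries at 48 h stood far apart from each other. Depth is unknown, so the precision of low genes could not be set, and the replicate 3 reading rests on 1 library.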
